A study of Mus musculus with 4 samples.

Results

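Polycomb group proteins keep genes silent through histone marks and are known in blood for their part in the self-renewal of stem cells. Polycomb repressive complex 2 (PRC2) methylates lysine 27 of histone H3, and Polycomb repressive complex 1 (PRC1) ubiquitinates histone H2A and compacts chromatin. The 10 genes described here were chosen by name. They are the PRC2 genes Ezh2, Ezh1, Eed, Suz12 and Jarid2 and the PRC1 genes Ring1, Rnf2, Bmi1, Phc1 and Phc2, out of 18193 genes with a probe set annotated to a single symbol. They have 27 of the 34945 such probe sets, and all of them are accounted for below.

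The study measured RNA of 4 mouse bone marrow populations on 1 single-colour Affymetrix array each. These populations served as nucleus donors in cloning experiments. Granulocytes, the mature end of the myeloid lineage, were sorted by strong Gr-1 staining and high granularity, to a purity of 99.4%. The other 3 came from cells enriched for c-Kit with magnetic beads and stained for CD34, Sca-1, c-Kit and lineage markers, Gr-1 and B220 among them. In the submitters' gate names, haematopoietic progenitor cells (HPC) were LKS-, stem cells of the long-term repopulating kind (LT-HSC) CD34-LKS and those of the short-term kind (ST-HSC) CD34+LKS. The sources used here do not give the genotype, strain or age of the mice and name no treatment. RNA came from 50 to 200 thawed cells per population, picked by morphology, and was amplified in 2 rounds. With 1 array per population there is no replicate, no test and no p-value, and precision is limited by having 4 arrays in all.

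Signals under 120.1, the median of all signals pooled over the arrays and called the floor here, were taken as unmeasured and set to it before any difference. The probe set of highest average log2 signal stood for its gene. A gene was called higher or lower where it differed at least 2-fold, in 1 direction, from every array it was set against. The yardstick of error was the pooled SD between probe sets of 1 gene in the log2 difference, which was 0.85 in the granulocyte comparison (2874 genes), 0.57 in the HPC comparison (3511 genes) and 0.64 in the comparison of the stem cell gates (3875 genes). Spread between separate sorts or amplifications is not part of it.

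All 11 measured granulocyte markers were called higher in granulocytes, and 8 of 11 stem and progenitor markers were called lower there. On the LT-HSC array 7 of the 11 granulocyte markers lay above the floor, against 3 on the HPC array and 3 on the ST-HSC array. Their summed signal was 442992 in granulocytes, against 1628 in HPC, 23306 in LT-HSC and 3062 on the ST-HSC array. Mmp8, Mmp9, Cxcr2 and Itgam were under the floor on the LT-HSC array. The 7 B lineage markers summed to 1674 in granulocytes, against 6804 in HPC, 14076 in LT-HSC and 610 on the ST-HSC array. The 8 monocyte and macrophage markers summed to 16775 in granulocytes, against 18802 in HPC, 1203 in LT-HSC and 1839 on the ST-HSC array, and 2 of them were called higher in granulocytes. Signals for the 3′ end of Gapdh exceeded those for its 5′ end by 12.4 to 17.8 times, and for Actb by 5.75 times in granulocytes and 12.2 to 16.1 times on the other arrays. The part of these transcripts and of RNA quality in the results below was not tested.

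Granulocytes were compared with the other 3 populations to see which Polycomb genes set the differentiated donor cells apart. Ezh2, Suz12, Rnf2 and Bmi1 were called lower in granulocytes, which is 4 of 10 members, and no member was called higher. Over all genes 12.7% were called lower and 8.90% higher. Among the 14408 genes above the floor on at least 1 array, the shares were 16.1% and 11.2%. At the probe sets used, PRC2 was divided. Its enzyme gene Ezh2 and its scaffold gene Suz12 were lower, while Ezh1, Eed and Jarid2 stayed within 1.5-fold of every other array. Other probe sets of Eed and Jarid2 differed by more, as given below. Of the PRC1 genes, Rnf2, Bmi1, Phc1 and Phc2 were below all other arrays at the probe sets used, and Ring1 could hardly be measured. Set against the mean of the other arrays, the log2 difference had a median of −1.32 over the 10 members, 0.01 over the 5 PRC2 genes and −1.69 over the 5 PRC1 genes, against 0 over all genes. In such bulk samples, less RNA of a gene per cell cannot be told apart from fewer cells that hold it.

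**Figure D1:**
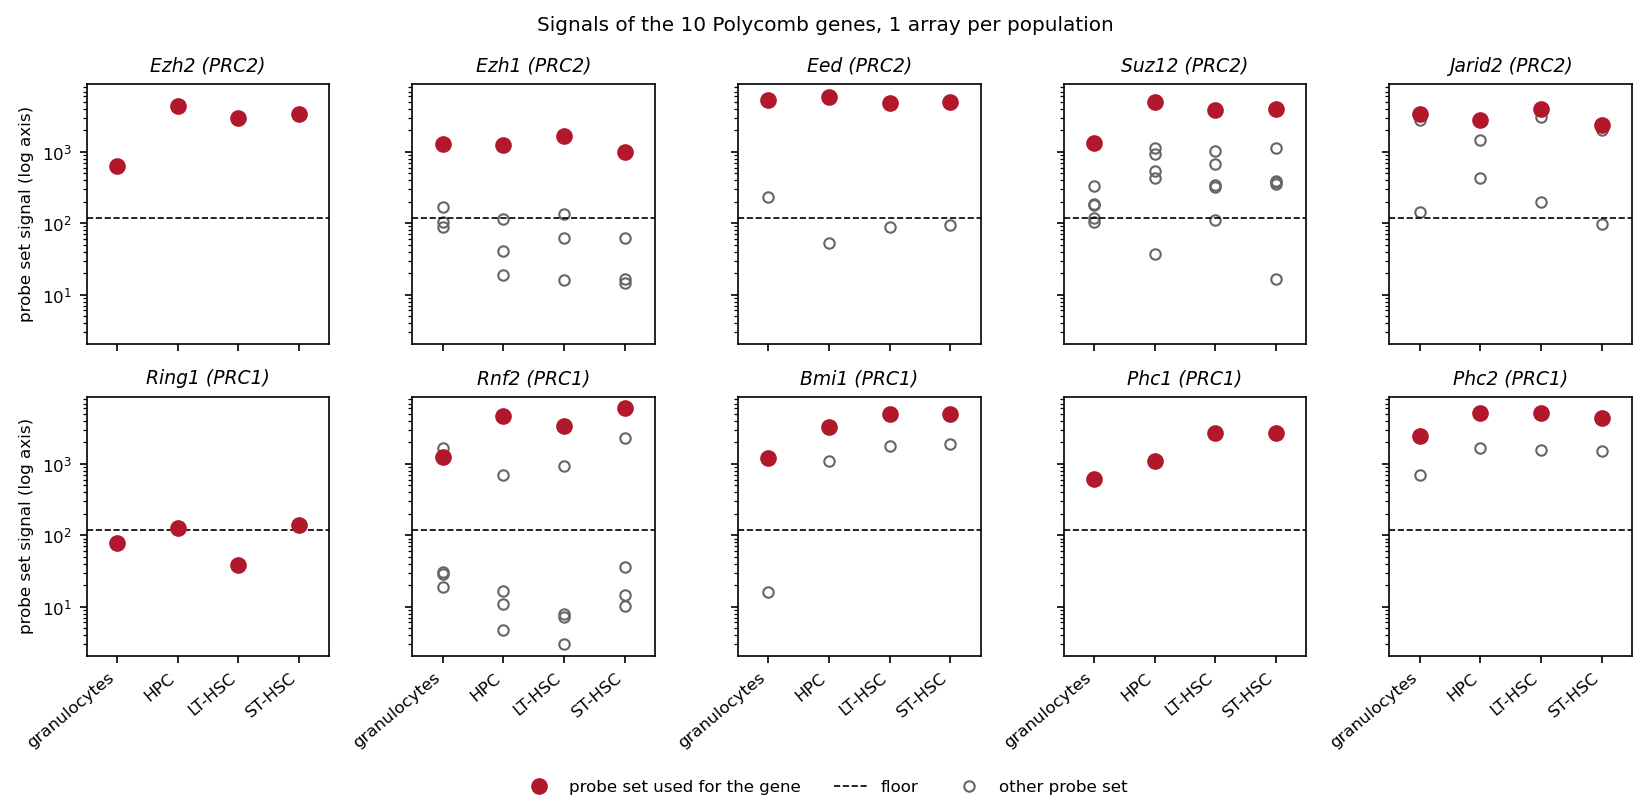
Signal of every probe set of the 10 genes (vertical axis, log scale, arbitrary units) on the granulocyte, HPC, LT-HSC and ST-HSC arrays, with filled points for the probe set used, open points for the gene's other probe sets and a dashed line at the floor of 120.1. Ezh2 sits at 628 in granulocytes and at 2934 to 4407 on the other arrays, while Eed lies between 4908 and 5908 on all 4.

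Ezh2 encodes the main methyltransferase of PRC2. Its only probe set had a signal of 628 in granulocytes, against 4407 in HPC, 2934 in LT-HSC and 3346 on the ST-HSC array. Granulocytes were 7.01-fold below HPC, 4.67-fold below LT-HSC and 5.33-fold below ST-HSC. The log2 difference against the mean of the other arrays was −2.48, or more than the yardstick SD of 0.85, and it was −2.61 without the LT-HSC array. At the probe sets used, Ezh2 had the lowest such difference of the members and was the only one at least 4-fold below each other array. With the median over probe sets, Bmi1 was lower still, at −2.77.

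Ezh1 encodes the paralogous methyltransferase, which is known to take the place of EZH2 in PRC2 of non-dividing cells. Its brightest probe set had 1290 in granulocytes, against 1265 in HPC, 1675 in LT-HSC and 999 on the ST-HSC array, so granulocytes lay among the other arrays. The log2 difference against their mean was 0.01. A dimmer probe set had 171 in granulocytes and 134 in LT-HSC and was under the floor in HPC and ST-HSC, and the remaining 2 were under the floor on every array. The 2 enzyme genes thus differed in their granulocyte difference by −2.49 log2 units (Ezh2 minus Ezh1).

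Suz12, the scaffold that PRC2 needs for its stability, was lower at each of the 5 probe sets that reached the floor on any array. Its brightest probe set had 1348 in granulocytes, against 4954 in HPC, 3878 in LT-HSC and 4036 on the ST-HSC array. Granulocytes were 3.67-fold, 2.88-fold and 2.99-fold below these arrays. Over the 5 probe sets the log2 difference against the mean of the other arrays ran from −1.72 to −1.13, and 1 more was under the floor throughout.

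Eed encodes the subunit that reads methylated lysine 27 and stimulates the enzyme. It had 5403 in granulocytes, against 5908 in HPC, 4908 in LT-HSC and 5067 on the ST-HSC array. A second, dim probe set had 232 in granulocytes and was under the floor on the other 3 arrays. Neither probe set of this core subunit shared the direction of Ezh2 and Suz12, and the log2 difference of Suz12 minus that of Eed was −1.70.

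Jarid2, a cofactor that helps to bring PRC2 to chromatin, gave no single direction in granulocytes. Its brightest probe set had 3347 in granulocytes, against 2781 in HPC, 4024 in LT-HSC and 2404 on the ST-HSC array. A second had 2761 in granulocytes, against 1459 in HPC, 3107 in LT-HSC and 2037 on the ST-HSC array, in the same order apart from HPC and ST-HSC. The dimmest had 142 in granulocytes, against 428 in HPC, 201 in LT-HSC and 96.9 on the ST-HSC array and so placed HPC highest. Differences of Jarid2 that involve HPC depend on the probe set.

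Promoter stretches are shown for Ezh2 and Suz12, the PRC2 genes called lower in granulocytes, and for Ezh1, the paralogue of Ezh2 that was not. E2F factors, which drive genes of the cell cycle and are known to act on Ezh2, bind letters of the kind TTTCCCGC, TTTGGCGC, TTTCGCGC and TTTGCCGC, and these were searched on both strands, together with the CCAAT box. No match of one overlapped a match of the other in the members' windows. The windows run from 250 bases before to 50 after a gene's start in RefSeq (GRCm38.p6). All 10 members had a window, with 2 starts for Jarid2 and 3 for Phc2. The E2F-type letters occurred in the windows of Ezh2 and Suz12 and in no window of the other 8 members, against 2.3% of all 32851 windows. Rnf2 and Bmi1, which were also called lower in granulocytes, are among the members without them. The share over all windows is not matched for pairs of C followed by G, which the letters contain. In Ezh2 the E2F-type letters lay at bases 4 to 11 after the start, where a stretch of 30 bases is shown. In Suz12 they lay 219 to 212 bases before it, and in Ezh1 neither these letters nor a CCAAT box was present. Capitals mark the E2F-type letters and, in Suz12, the CCAAT box. The Ezh2 stretch begins with the last 2 bases of a CCAAT box on the other strand, which are left in lower case. The stretches are chr6:47595009-47595038 (minus strand) for Ezh2, chr11:79992856-79993105 (plus strand) for Suz12 and chr11:101226464-101226713 (minus strand) for Ezh1, the last 2 being the 250 bases before the start.
Ezh2: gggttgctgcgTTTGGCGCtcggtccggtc
Suz12: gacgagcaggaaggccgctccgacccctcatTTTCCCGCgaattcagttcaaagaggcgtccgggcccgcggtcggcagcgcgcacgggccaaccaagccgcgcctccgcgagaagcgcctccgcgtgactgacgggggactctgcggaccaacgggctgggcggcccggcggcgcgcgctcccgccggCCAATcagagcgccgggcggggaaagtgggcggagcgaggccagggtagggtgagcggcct
Ezh1: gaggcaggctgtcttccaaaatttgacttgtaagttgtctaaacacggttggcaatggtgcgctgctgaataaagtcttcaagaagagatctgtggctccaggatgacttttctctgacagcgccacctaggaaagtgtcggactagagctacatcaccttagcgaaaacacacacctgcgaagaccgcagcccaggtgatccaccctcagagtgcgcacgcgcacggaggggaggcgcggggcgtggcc

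The letters describe the windows only, and no binding was measured. The CCAAT box occurred 3 times in the Ezh2 window, once each in those of Suz12 and Eed and in both Jarid2 windows and 2 of the 3 Phc2 windows, and 37.4% of all windows held it. Pairs of C followed by G numbered 31 in the Ezh2 window, 23 in that of Ezh1, 17 in that of Eed and 41 in that of Suz12, against a median of 7 over all windows. Among the other members Phc1 had 9 such pairs and Ring1 37.

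Genes of cell division were also lower in granulocytes. Of 19 measured proliferation markers, 14 were called lower in granulocytes and none higher, with a median log2 difference of −2.62. Their summed signal was 17301 in granulocytes, against 126030 in HPC, 84250 in LT-HSC and 110292 on the ST-HSC array. On the granulocyte array 14 of the 19 still lay above the floor. The part of cell division in the Polycomb differences was not tested.

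Rnf2 and Ring1 encode the paralogous ubiquitin ligases of PRC1. The brightest probe set of Rnf2 had 1234 in granulocytes, against 4710 in HPC, 3410 in LT-HSC and 6001 on the ST-HSC array. Granulocytes were 3.82-fold, 2.76-fold and 4.86-fold below these arrays. A second bright probe set of the same gene went another way, with 1660 in granulocytes, against 706 in HPC, 934 in LT-HSC and 2276 on the ST-HSC array. Its log2 difference against the mean of the other arrays was 0.54, against −1.89 for the first, so the lower call of Rnf2 rests on 1 of 2 measured probe sets. The other 3 probe sets were under the floor on all arrays.

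Ring1 had 1 probe set, with 78.6 in granulocytes, against 128 in HPC, 38.4 in LT-HSC and 141 on the ST-HSC array. The granulocyte and LT-HSC signals were under the floor and the other 2 just above it. No order of the populations can be read from Ring1.

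Bmi1 encodes the PCGF subunit of PRC1 that is known to be needed for the self-renewal of adult blood stem cells. It had 1194 in granulocytes, against 3306 in HPC, 4997 in LT-HSC and 4934 on the ST-HSC array. Granulocytes were 2.77-fold below HPC, 4.18-fold below LT-HSC and 4.13-fold below ST-HSC. The second probe set had 15.8 in granulocytes, under the floor, and 1096 in HPC, 1769 in LT-HSC and 1918 on the ST-HSC array, a log2 difference of −3.69 with granulocytes set to the floor. Both placed granulocytes lowest, HPC next and the stem cell arrays highest and close together.

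Phc1 and Phc2 encode polyhomeotic proteins, which join PRC1 complexes into larger assemblies. Phc1 had 616 in granulocytes, against 1105 in HPC, 2682 in LT-HSC and 2665 on the ST-HSC array, in the same order as Bmi1. Granulocytes were 4.35-fold and 4.33-fold below LT-HSC and ST-HSC but 1.79-fold below HPC, so Phc1 was not called in this comparison. Phc2 had 2471 in granulocytes, against 5117 in HPC, 5195 in LT-HSC and 4381 on the ST-HSC array, and its second probe set had 706 in granulocytes, against 1659, 1549 and 1509. The second probe set was more than 2-fold lower in granulocytes on every comparison, and the first missed that only against ST-HSC, at 1.77-fold. All 3 probe sets of these genes placed granulocytes lowest.

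**Figure D2:**
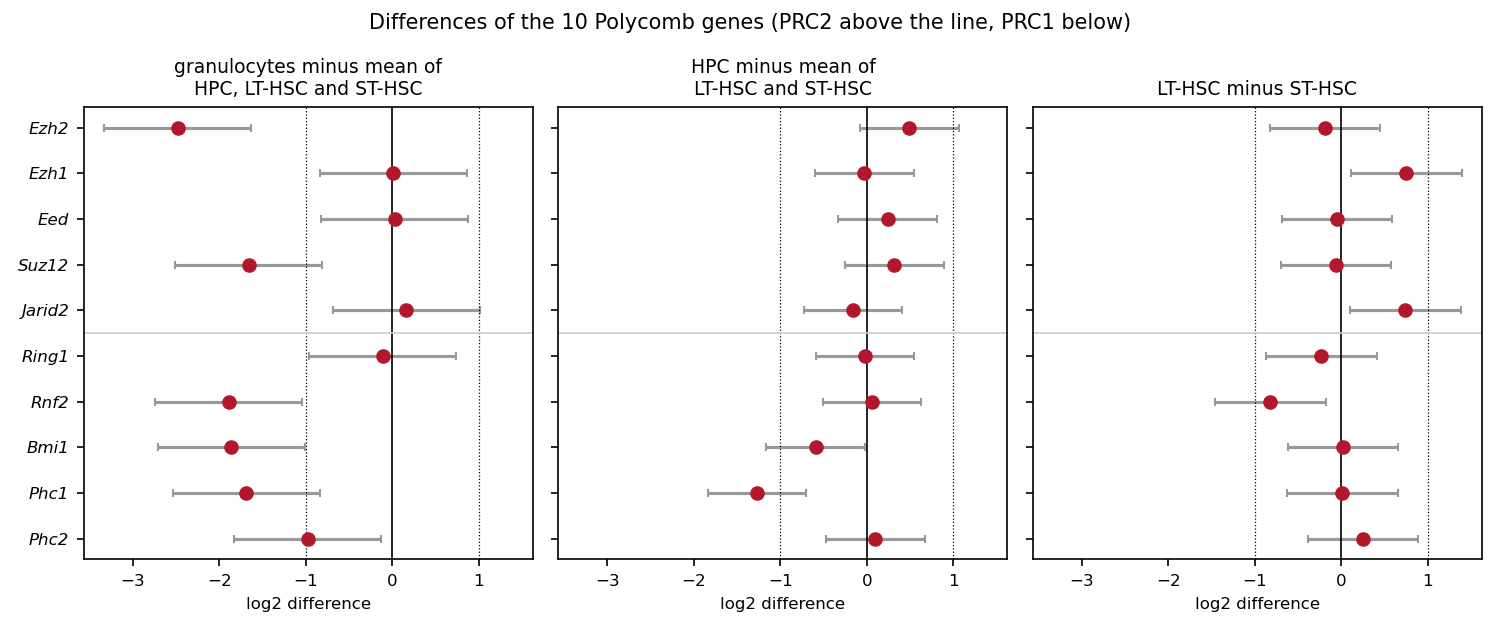
Log2 difference of each gene (horizontal axis) in granulocytes against the mean of HPC, LT-HSC and ST-HSC, in HPC against the mean of LT-HSC and ST-HSC, and in LT-HSC against ST-HSC. Points are the values of the probe set used, bars the SD between probe sets of 1 gene over all genes (0.85, 0.57 and 0.64), and dotted lines 2-fold. Ezh2 lies at −2.48 in the granulocyte panel and Phc1 at −1.27 in the HPC panel.

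Of the 21 member probe sets that reached the floor on any array, 14 were below the mean of the remaining arrays in granulocytes and 7 above it, from −3.69 (Bmi1) to 0.95 (Eed). The other 6 probe sets had signals of 3.0 to 110 throughout. Of the 10 genes, 9 had a probe set above the floor on all 4 arrays, Ring1 being the exception. The direction of the near-zero genes depends on scaling: set to the hybridization controls, the log2 differences of Ezh1, Eed and Jarid2 were −0.53, −0.50 and −0.37, and Phc1 and Phc2 joined the members called lower, which made 6. That scaling turned the calls over all genes to 835 higher and 3210 lower in granulocytes, beside 1619 and 2319 as deposited, and a common 75th percentile gave 2154 and 1959.

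Setting HPC against LT-HSC and ST-HSC asks what separated progenitors from the stem cell gates. Phc1 was the only member called, lower in HPC, where 2.69% of all genes were called lower. None was called higher, against 2.12% of all genes. Its signal of 1105 in HPC was 2.43-fold below LT-HSC and 2.41-fold below ST-HSC, a log2 difference of −1.27 against their mean, beyond the yardstick SD of 0.57. Without the LT-HSC array it was also −1.27. Bmi1, its partner in PRC1, was 1.51-fold and 1.49-fold lower in HPC, and the log2 differences of its 2 probe sets were −0.59 and −0.75. Phc2 differed by 0.10 and 0.12 at its 2 probe sets.

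No PRC2 gene was called in HPC. Ezh2 was 1.50-fold above LT-HSC and 1.32-fold above ST-HSC, with a log2 difference of 0.49. Suz12 was higher against the mean of the stem cell arrays at all 5 measured probe sets, by 0.04 to 0.86 log2 units. Eed differed by 0.24 and Ezh1 by −0.03. Jarid2 differed by −0.16, −0.79 and at least 1.46 at its 3 probe sets. Rnf2 differed by 0.06 and −1.05 at its 2, so neither gene has a direction here. The median over the members was 0.02, against 0 over all genes. Proliferation markers were called higher in HPC for 2 of 19 genes and lower for none, with a median of 0.55, and monocyte and macrophage markers, whose sums are given above, for 5 of 8 genes. Their part in the values of HPC was not tested.

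LT-HSC were compared with ST-HSC to see whether the stem cell gates differed, and no member was called in either direction. Over all genes 7.28% were called higher and 5.41% lower in LT-HSC. At the probe sets used, the widest differences were those of Rnf2, Ezh1 and Jarid2. A dimmer probe set of Suz12 differed by 0.80 (667 against 383), while its other 4 ran from −0.16 to −0.06. Rnf2 was lower in LT-HSC at both measured probe sets, with log2 differences of −0.82 (3410 against 6001) and −1.28 (934 against 2276). Ezh1 was 1.68-fold higher in LT-HSC, at 1675 against 999. Its dimmer probe set differed by at least 0.16, at 134 against an ST-HSC signal of 62.3, under the floor. Jarid2 was higher in LT-HSC at all 3 probe sets. The differences were 0.74, 0.61 and, with ST-HSC under the floor, at least 0.74, beside the yardstick SD of 0.64. Ezh2, Eed, Suz12, Bmi1 and Phc1 differed by no more than 0.19 at the probe sets used, with Bmi1 at 4997 against 4934 and Phc1 at 2682 against 2665. Granulocyte and B lineage transcripts had higher summed signals on the LT-HSC array, as given above, and their part in these differences was not tested.

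The 5 genes whose profiles over the 4 arrays lay nearest to Ezh2 were Mak16, Nucks1, Setd6, Map3k4 and Snord104, at Euclidean distances of 0.10 to 0.15 log2 units between centred values, among 7793 named genes above the floor on all arrays. Nucks1, for example, had 2164 in granulocytes, against 16039 in HPC, 10407 in LT-HSC and 10986 on the ST-HSC array. Nearest to Ezh1 were Zc3h4, Rpp25l, Znfx1, Ilrun and Dtnb, at 0.06 to 0.10. Zc3h4 had 1668 in granulocytes, against 1660 in HPC, 2259 in LT-HSC and 1362 on the ST-HSC array. With 4 arrays many profiles lie close by, so these names only describe the shape.

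Other genes of the Polycomb system were lower in granulocytes more often than higher. Of 37 further measured subunits and partners, 13 were called lower (35.1%) and 4 higher (10.8%), beside 12.7% and 8.90% of all genes, and the median was −0.75 against 0. Among genes above the floor on at least 1 array the shares were 16.1% lower and 11.2% higher, so the share higher was near that of such genes. Scaled to the hybridization controls, 16 were lower and 1 higher, beside 17.6% and 4.59% of all genes. Among the PRC2 partners Mtf2, a Polycomb-like protein that directs PRC2 to CpG islands, had 293 in granulocytes, against 4145 in HPC, 4946 in LT-HSC and 6248 on the ST-HSC array, and was 14.1-fold below the nearest of them. Its 4 other measured probe sets had log2 differences of −3.09 to −0.26. Rbbp7, a histone-binding subunit, was 2.99-fold lower. At the probe sets used, Aebp2, Rbbp4 and Phf19 were not called. The 3 other measured probe sets of Aebp2 had log2 differences of −2.15 to −1.58, so its result depends on the probe set. Those of Rbbp4 ran from −0.54 to 0.83, and that of Phf19 was 0.66. Phf1, another Polycomb-like protein, had 610 in granulocytes, against 185 in HPC, 369 in LT-HSC and 166 on the ST-HSC array, and was within 2-fold of LT-HSC.

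Of 14 other PRC1 subunits and partners, 6 were called lower in granulocytes and 1 higher, and of 5 other PCGF genes 2 were called lower and none higher. Kdm2b, which brings PRC1 to unmethylated CpG islands, had 1293 in granulocytes, against 13277 in HPC, 14310 in LT-HSC and 10253 on the ST-HSC array, and was 7.93-fold lower. Its second probe set had 560 in granulocytes, against 7042, 6028 and 4775. Bcor, the corepressor of the same complex, had 408 in granulocytes, against 3297, 5053 and 2097, and its 3 probe sets all placed granulocytes lowest. E2f6 was at least 12.5-fold lower, L3mbtl2 at least 2.51-fold, Pcgf3 9.21-fold and Pcgf6 4.93-fold, although another probe set of Pcgf6 differed by 0.10 in the other direction. Pcgf5, at 907 in granulocytes against 1771 to 3463 elsewhere, narrowly missed the call at 1.95-fold.

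The chromobox genes, whose products read methylated lysine 27 for canonical PRC1, went in opposite directions. Cbx6 was 9.31-fold lower in granulocytes, at 140 against 1301 to 2754, and Cbx2 at least 4.46-fold lower, at 79.7 against 536 to 679. Cbx8 was 3.60-fold higher, at 527 in granulocytes against 146 in HPC and signals under the floor in LT-HSC and ST-HSC. Cbx7 had 28.1 in granulocytes, against 233 in HPC, 689 in LT-HSC and 59.5 on the ST-HSC array, and was at least 5.74-fold higher in LT-HSC than in ST-HSC. Another probe set of Cbx7 went the other way, with 142 in LT-HSC against 187 on the ST-HSC array. Phc3, a further polyhomeotic gene, was at least 5.26-fold lower in granulocytes and Scmh1, a further SAM domain protein of PRC1, 4.33-fold lower.

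Of 7 genes of the deubiquitinating and DNA-binding Polycomb complexes, Mbtd1 was called lower, with one of its other probe sets near 0, and Asxl1 and Sfmbt2 were called higher. Asxl1 had 8171 in granulocytes, against 2723 to 3111, but its other bright probe set had 2236 against 2679 to 5128, so its direction depends on the probe set. Sfmbt2 had 963 in granulocytes, against 69.3 in HPC, 220 in LT-HSC and 424 on the ST-HSC array. Bcorl1 was the fourth higher gene, at 309 against 111 to 128, and its second probe set had the opposite sign. Yy1, the DNA-binding subunit, had 5531 in granulocytes, against 6588 in HPC, 4682 in LT-HSC and 7850 on the ST-HSC array.

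**Figure D3:**
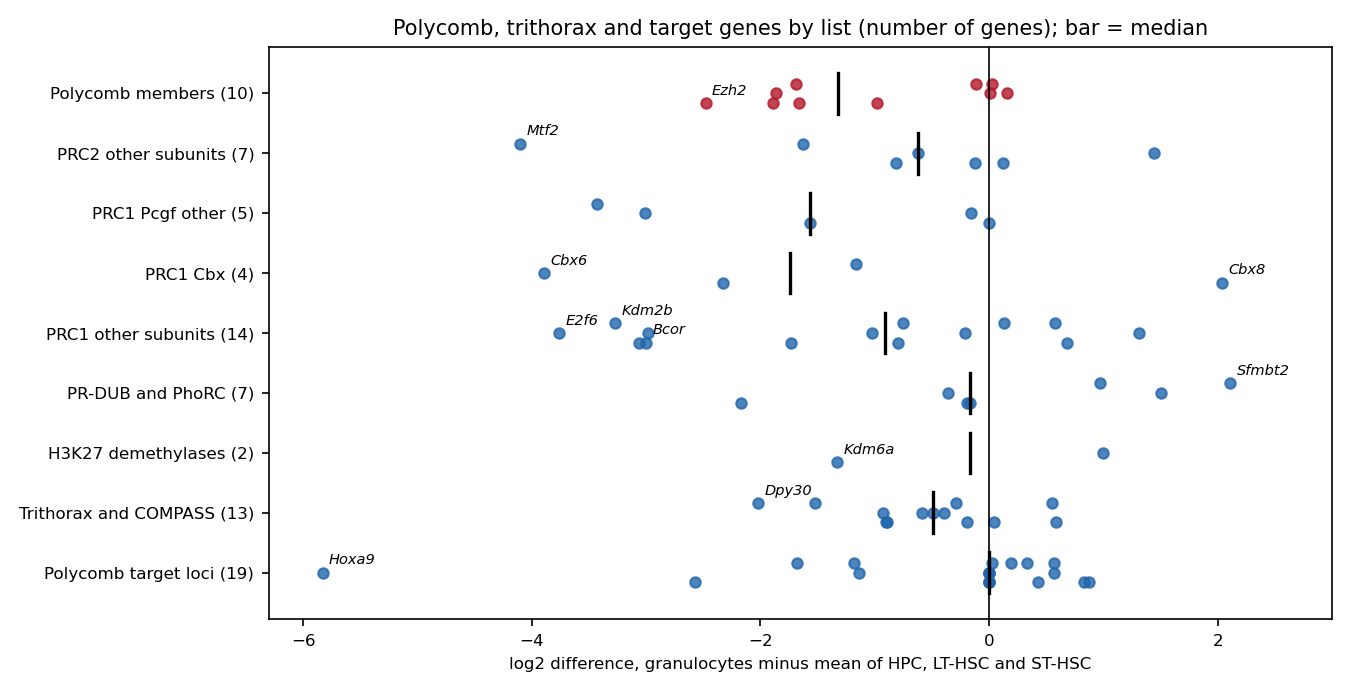
Log2 difference in granulocytes against the mean of HPC, LT-HSC and ST-HSC (horizontal axis) for the 10 genes (red, top row) and for other Polycomb, demethylase, trithorax and target genes by list (blue, number of measured genes in brackets), with vertical bars at each list's median. The medians are −1.32 for the 10 genes, −1.74 for the chromobox genes, −0.49 for trithorax genes and 0 for target genes.

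Demethylases of lysine 27 and the trithorax group oppose Polycomb. The demethylase gene Kdm6a was 2.08-fold lower in granulocytes, at 546 against 1135 to 1827, and Kdm6b had 3289 against 1449 to 1841 and was not called. Of 13 trithorax and COMPASS genes, which methylate lysine 4 of histone H3, 1 was called lower (7.7%) and none higher, beside 12.7% and 8.90% of all genes, with a median of −0.49. That gene was Dpy30, a shared subunit, at 488 in granulocytes against 1426 to 2671. Kmt2a, the best known of the trithorax methyltransferases in blood, had 974 in granulocytes, against 1132 in HPC, 1452 in LT-HSC and 842 on the ST-HSC array, but its other measured probe set differed by −3.29. Kmt2e differed by −0.39 at the probe set used, but its 4 other measured probe sets were all higher in granulocytes, by 0.76 to 2.34. Kmt2c differed by 0.55, and its 3 other measured probe sets ran from −0.29 to 3.02. The counts and the median of this list therefore depend on the probe sets used. In LT-HSC, Ash2l (2.90-fold), Kmt2c (2.21-fold) and Kmt2b (2.12-fold) were called higher than in ST-HSC and Cxxc1 (2.11-fold) lower, which is 3 and 1 of 13 beside 7.28% and 5.41% of all genes.

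Loci that Polycomb is known to silence could be measured in part. Of 19 such genes, 6 were under the floor on every array, among them Cdkn2a and Cdkn2b, the cell cycle inhibitors that Bmi1 is known to repress. Cdkn2a had 108 in granulocytes and signals no higher on the other 3 arrays. Of the 19, 3 were called lower in granulocytes (15.8%) and none higher, beside 12.7% and 8.90% of all genes. The lower ones were Hoxa9 (at least 33.0-fold, at 74.0 against 3961 to 9430, with −0.54 at its other probe set), Cdkn1a (5.56-fold, at 876 against 4877 to 5473) and Hoxa5 (2.39-fold). In HPC, Hoxa10 (at least 3.66-fold) and Hoxa9 (2.17-fold) were called lower than on both stem cell arrays. In LT-HSC, Ebf1 (at least 8.58-fold), Cdkn1c (4.14-fold) and Hoxb4 (at least 2.78-fold) were called higher than in ST-HSC, and Ebf1 is also one of the B lineage markers.

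In HPC 2 of the 37 further Polycomb genes were called higher, Csnk2a1 (2.60-fold) and Scml2 (at least 2.34-fold), and none lower. The shares of all genes were 2.12% and 2.69%. The call of Csnk2a1 rests on 1 of 6 probe sets, and another had 208 in HPC against 279 in LT-HSC and 281 on the ST-HSC array. Without the LT-HSC array, which leaves ST-HSC as the only reference, these counts were 5 and 2, beside 6.47% and 6.21% of all genes. In LT-HSC 5 were called higher than in ST-HSC and 2 lower, beside 7.28% and 5.41% of all genes. Cbx7, Bcor, Phf1, Scmh1 and Asxl2 were the higher ones, the smallest at 2.08-fold, and Pcgf6 (2.93-fold) and Auts2 (at least 2.80-fold) the lower ones. When the probe sets of each gene were combined by their median, 1 was higher in LT-HSC, beside 5.51% of all genes.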

How the data were processed

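The authors deposited 1 column per array of linear probe set intensity. The sources used here name neither the summary software and its version nor detection calls. The 2% trimmed mean was 500 on every array, so no further scaling was applied. The 45101 probe sets include 64 controls, which were dropped. Symbols came from GEO's platform annotation, which gave 1 symbol for 34945 probe sets (34741 found by Entrez number in RefSeq GRCm38.p6), several for 932 and none used here for 9160.

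Named genes were all 10 members with every probe set, further list genes past 2-fold in any comparison (and examples beside them), and the 5 nearest profiles to Ezh2 and Ezh1. Aebp2, Rbbp4, Phf19, Pcgf5, Kdm6b, Yy1, Kmt2a, Cdkn2a and Cdkn2b are examples chosen after their values were seen. Members and gene lists were chosen with earlier results of these data known. Of the Polycomb partners listed, 37 of 40 had a probe set with a single symbol. The other 3 are not analysed here. The marker lists of T and NK (7 genes), erythroid (5), oocyte (8) and cumulus cells (6) had 1, 0, 1 and 3 genes called higher in granulocytes.

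Calls, differences and counts were computed in Python 3.11.15 with numpy 2.4.6, pandas 2.3.3 and matplotlib 3.10.9. The code was run on simulated data with large changes in bright genes and far less noise than between real probe sets. That run checks the code only and does not show how reliable the calls are. Alternatives changed the scaling, probe set, floor, dim-gene filter and fold. Leaving out the LT-HSC array was added after seeing the data.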

Additional observations from a re-analysis of the deposited data

How the results depend on the processing

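No paired analysis was possible because each population has 1 array. Of 64 values of the 6 member counts under the 11 alternatives, 58 stayed within 1.5 times the value reported. Most of these 6 counts were 0 as reported, and a 0 that stayed 0 was scored as unchanged, so the tally says little about stability. With a fold of 4, 1 member (Ezh2) was lower in granulocytes and 0 were lower in HPC, beside 5.34% and 0.346% of all genes. With a fold of 1.5, 2 members (Ezh1 and Jarid2) were higher and 1 (Rnf2) was lower in LT-HSC. Over all genes that fold called 14.6% higher and 12.7% lower. With the floor at the 25th percentile 1 member (Ring1) was lower in LT-HSC, beside 11.3% of all genes. With probe sets lacking the suffix _x_at or _s_at preferred, 1 (Jarid2) was higher in HPC, beside 2.13%. The count lower in granulocytes was otherwise 3 to 6, beside 7.15% to 17.6% of all genes. Ezh2 and Bmi1 were among the members called lower in each alternative but the fold of 4, which kept Ezh2. Rnf2 dropped out with the median over probe sets and Suz12 with the first probe set by name. The granulocyte log2 difference of Ezh2 ran from −3.02 to −2.25. Of 230 member differences under alternatives, 220 moved by less than the SD between probe sets and 10 by at least that much. Many could not move, because Ezh2, Phc1 and Ring1 have 1 probe set each and a moved floor leaves bright genes unchanged. That tally too says little about stability. No difference of at least 2-fold changed sign. In granulocytes, however, that of Suz12 fell to 0 with the first probe set by name and that of Rnf2 with the median over probe sets. That Suz12 probe set was under the floor on every array, and only 2 of the 5 Rnf2 probe sets reached the floor on any. Neither 0 is a measured lack of difference. No alternative used the second bright probe set of Rnf2 alone. Over the alternatives the further Polycomb genes lower in granulocytes numbered 9 to 16, beside 13, and those higher 0 to 5, beside 4. Over all genes, the alternatives gave 521 to 2888 genes higher in granulocytes (1619 as reported) and 972 to 3210 lower (2319), 50 to 1218 higher in HPC (385) and 63 to 1130 lower (490), and 235 to 2665 higher in LT-HSC (1325) and 126 to 2319 lower (985). Signals near the floor, as for Ring1, cannot show a difference, and no alternative stands in for replicate sorts.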
